A study of Mus musculus with 12 samples.

Results

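The 1970 peaks described here are the open-chromatin peaks of mouse hepatocytes that the authors' annotation placed in an exon (1220 peaks) or in a 5' UTR (750 peaks), of 52530 peaks in all (3.75%). Members were taken by that annotation alone and not by any measured value, and each spans 200 bp on the mm10 build. They lie in 1687 genes, of which 1457 hold 1 such peak, 187 hold 2 and 43 hold 3 or more. Peaks centred closer to a gene start than 101 bp were absent from the set. The median distance to the nearest gene start was 244 bp for 5' UTR peaks and 3333 bp for exon peaks. For 304 peaks the nearest gene start was that of another gene than the one whose exon held the peak, and genes are named here by the exon unless stated. Windows of 104 members overlapped another member and share reads.

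The assay was ATAC-seq, which reads open chromatin from where a transposase inserts its adapters. The 4 groups, each of 3 libraries, were frozen fasted, frozen fed, fresh fasted and fresh fed liver. All came from 6 female HEP-INTACT mice, whose hepatocyte nuclei carry a genetic tag and are pulled from liver on beads. The sources used here do not give the promoter or Cre line that drives the tag, nor the age of the mice. Fasted mice went without food for 16 h from ZT12, the onset of the active phase. Fed mice ate freely and were killed at the same time. Each mouse gave 1 frozen and 1 fresh library. If the smallest step between a library's values is 1 read, which the sources used here do not state, libraries held 3692152 to 14506057 reads in peaks and 45 to 198 in the median member. A single member then rests on few reads in the shallowest libraries. Values are the authors' normalized reads per peak, and for fasting the frozen and fresh library of a mouse were averaged.

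The defining marker Alb was the only one of 7 hepatocyte marker genes with a member. Its exon 7 peak averaged 149 ± 11.6 normalized reads in fasted mice and 127 ± 9.05 in fed mice (SD, n = 3 each), a difference that limma did not call (adjusted p = 0.0959). Of the marker lists for other liver cells, stellate cells and lymphocytes had 0 members, macrophages 1 (Spi1), bile duct 1 and endothelium 2 (Vwf and Stab2). The summed endothelial level was 147 to 168 normalized reads in fasted mice and 116 to 135 in fed mice, and its part in the results was not tested. A peak open in fewer nuclei and a peak less open in every nucleus cannot be told apart in these pooled nuclei.

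A 5' UTR begins at the transcription start, so peaks there mostly cover DNA just past the promoter, where the polymerase starts and pauses. Exons deeper in a gene code for protein, yet their DNA can also bind transcription factors and act as an enhancer of the host gene or of a neighbour. In the fasted liver, insulin falls while glucagon and glucocorticoids rise. Glucose and ketone production then go up through factors such as CREB, FOXO1, PPARα and the glucocorticoid receptor, and fat and cholesterol synthesis through SREBP factors go down.

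Sequences at the gene starts of members that differed are shown first, because the members near a start lie just past them. They come from RefSeq on GRCm38.p6, the assembly of mm10, and are written 5' to 3' on the strand of the gene. In the first 4 the capitals mark TGACG, the core of the site of CREB and ATF factors, or CGTCA, which is TGACG on the other strand. In the last pair the capitals mark ATTGG, which is CCAAT on the other strand, or the 8-base run in which CCAAT and ATTGG overlap.
Noct, chr3:51224440-51224469, plus strand: ttctggcaggacTGACGctcaacgccctgc
Cebpb, chr2:167688896-167688925, plus strand: ggggccccagcgTGACGcagcccgttgcca
Atf3, chr1:191183323-191183352, minus strand: ttaatagcattaCGTCAgcctgggattggt
Atf4, chr15:80255160-80255189, plus strand: ttcggctttgacCGTCAgagctttggctag
Idi1, chr13:8885580-8885609, plus strand: gtccaaggtgccATTGGctggcgaccgaca
Fasn, chr11:120824589-120824618, minus strand: cctcggtgtCCAATTGGtttcgatgtggag
The Cebpb stretch overlaps its 5' UTR peak at chr2:167688921-167689121. Each other stretch lies outside the exon or 5' UTR peak it was compared with. Overlap with promoter peaks of these genes was not examined.

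Exon and 5' UTR peaks differed in how their fasting calls were divided. Of 1970 members, 359 rose (18.2%) and 332 fell (16.9%) in fasted mice, close to the 16.5% of all peaks called higher and 18.1% called lower (limma, adjusted p under 0.05). Among 5' UTR peaks 194 rose and 43 fell, a division that became 61 and 79 when libraries were scaled to gene starts. Among exon peaks 165 rose and 289 fell, and 79 and 375 under that scaling. With the deposited scaling 25.9% of 5' UTR peaks rose and 5.73% fell, beside 19.4% and 3.80% of promoter peaks. Exon peaks had 13.5% and 23.7%, beside 14.3% and 24.2% of intron peaks, so neighbouring classes were divided in a similar way. The median log2 difference was 0.17 for 5' UTR peaks and 0.0046 for exon peaks. The median over all peaks was 0.048. Changes past 1 on the log2 scale were 16 higher and 113 lower, beside 1.53% and 5.62% of all peaks. As shares of the members these were 0.812% and 5.74%, so large falls were about as frequent as among all peaks. Of the 113, exon peaks made up 107.

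The division depends on how libraries are scaled. In the scaling to gene starts, libraries were given equal medians over peaks within 1 kb of a gene start. It shifted the median of all peaks by −0.12, and 140 members were called higher and 454 lower. Higher calls then made up 23.6% of the members' calls, against 52.0% with the deposited scaling and 58.2% with quantile normalization. Over all peaks the shares moved alike, at 24.0%, 47.8% and 50.7%, and scaled to gene starts 7.74% of all peaks were called higher and 24.5% lower. Relative to the median of all peaks, the medians were the same under the deposited scaling and the scaling to gene starts, 0.12 for 5' UTR peaks and −0.043 for exon peaks. With quantile normalization they were 0.13 and −0.017. With all mice, 691 members were called in all, beside 34.6% of all peaks. Leaving out any 1 mouse gave fewer calls, 404 to 623, and also left fewer mice to test with. How much of the drop was due to the single mouse was not tested. The lowest counts were 437 without fasted mouse A, 411 without fed mouse A and 404 without fed mouse B. Higher calls then numbered 167, 171 and 164.

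These shares differed by place in the transcript. In the first exon, 27.0% of 681 5' UTR peaks rose and 5.14% fell. In later exons 14.5% of 69 5' UTR peaks rose and 11.6% fell. Of 337 exon 1 peaks outside the 5' UTR, 19.3% rose and 9.20% fell. In exon 2, 11.2% of 169 rose and 24.3% fell. In exon 3 and later other than the last, 10.7% of 513 exon peaks rose and 32.4% fell. In the last exon 12.9% of 201 rose and 25.4% fell. The median log2 difference was 0.18 for 5' UTR peaks of exon 1 and −0.16 for exon 3 and later. With the scaling to gene starts, 59 of the 5' UTR peaks of exon 1 were called higher and 61 lower. That scaling centres on peaks near gene starts, the class these peaks belong to. How much of the even division comes from that centring was not tested. Their median relative to all peaks was 0.13 under both scalings, which a constant factor per library leaves nearly unchanged. Exon 3 and later then had 21 higher and 208 lower, with a relative median of −0.20 under both for the same reason.

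**Figure D1:**
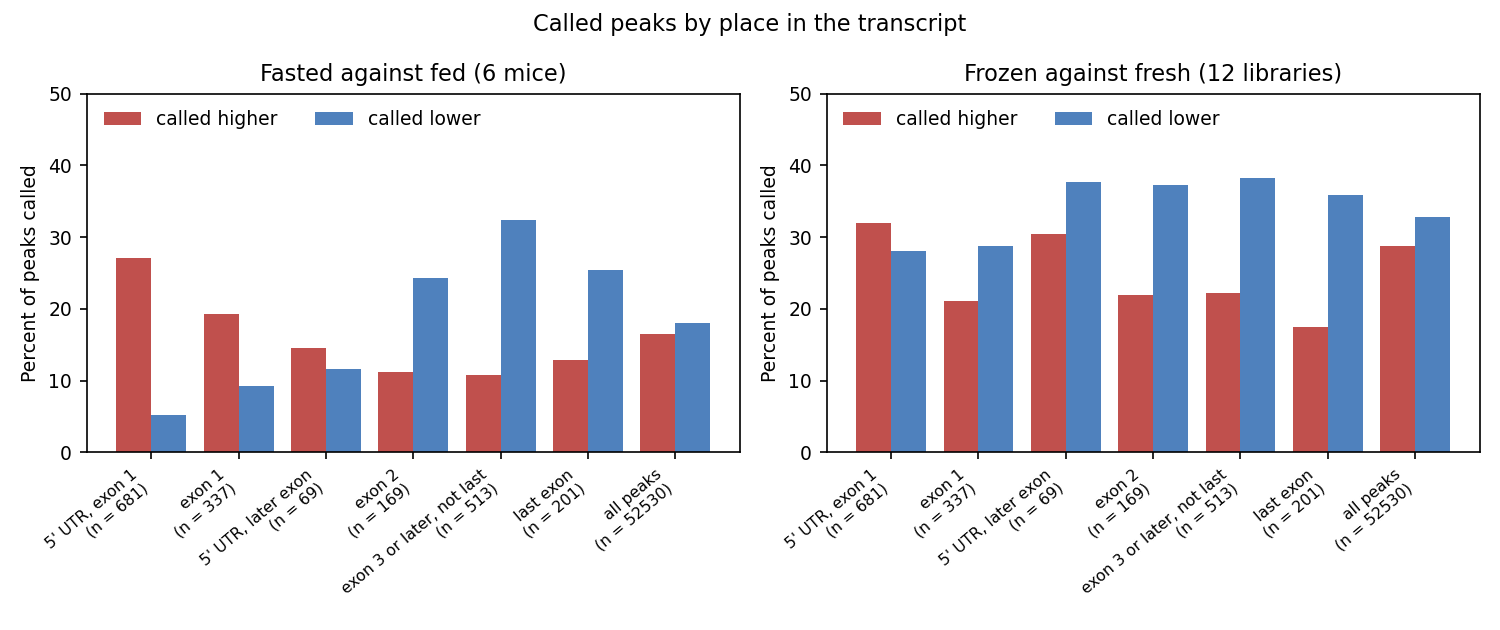
Percent of peaks called higher or lower (limma, adjusted p under 0.05), by place in the transcript, for fasted against fed mice on the left and frozen against fresh libraries on the right, with all peaks as the last pair of bars. In the fasting panel 5' UTR peaks of exon 1 show 27.0% higher and 5.14% lower and exon 3 and later 10.7% higher and 32.4% lower. Scaled to gene starts, which centres on such peaks, the 5' UTR peaks of exon 1 had 59 higher and 61 lower calls.

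The shares also differed with distance from a gene start, for peaks in exons and outside them. Within 500 bp, 25.7% of 875 members rose and 6.06% fell, beside 24.9% and 4.54% of intron peaks at the same distance. Beyond 5 kb, 12.1% of 556 members rose and 31.5% fell, beside 13.7% and 28.0% of intron peaks. Median log2 differences beyond 5 kb were −0.14 for members and −0.089 for intron peaks. Scaled to gene starts, which centres on peaks near starts, members within 500 bp had 84 higher and 87 lower calls and members beyond 5 kb 32 and 218. All peaks then had 4065 and 12845. Relative to all peaks, the median of members within 500 bp was 0.14 under both scalings, which a constant factor per library leaves nearly unchanged. As a share of all normalized reads in peaks, exon peaks held 1.76 ± 0.0410% in fasted and 1.87 ± 0.0286% in fed mice (SD, n = 3 each). The 5' UTR peaks held 1.54 ± 0.00425% in fasted and 1.43 ± 0.0331% in fed mice, and the 3 fasted mice were apart from the 3 fed mice in both shares.

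Among the peaks with the largest rise was one in exon 5 of 5 of Det1, an adaptor of a ubiquitin ligase, at chr7:78827873-78828073. It had 168, 170.1 and 98.3 normalized reads in fasted mice, against 43.0, 47.3 and 57.8 in fed mice (log2 difference 1.53 ± 0.21 (SE), limma adjusted p = 0.000861). A peak in exon 4 of 5 of Oscar, an immune receptor best known on osteoclasts, had 109.7, 115 and 123 in fasted mice, against 43.1, 39.0 and 53.3 in fed mice (log2 difference 1.35 ± 0.15 (SE), limma adjusted p = 0.000294). Fasted mouse C was the lowest fasted mouse at Det1, and the groups did not overlap at either gene. The choice of the peaks with the largest rises and falls required this. Fasted and fed mice did not overlap at 52.5% of members and 51.5% of all peaks. A 5' UTR peak of Noct, the circadian phosphatase nocturnin, at chr3:51224669-51224869, had 199, 179 and 128 normalized reads in fasted mice, against 82.3, 73.1 and 52.8 in fed mice (log2 difference 1.30 ± 0.20 (SE), limma adjusted p = 0.00143). At Noct too the groups did not overlap. The 5' UTR peak of Sox12, an SRY-box factor, had 112, 108 and 116 in fasted mice, against 48.8, 49.1 and 66.7 in fed mice (log2 difference 1.04 ± 0.15 (SE), limma adjusted p = 0.000917). That of Prrg4, a membrane Gla protein, had 135, 134 and 127 in fasted mice, against 62.6, 64.0 and 68.8 in fed mice (log2 difference 1.03 ± 0.10 (SE), limma adjusted p = 0.000239). At both genes every fasted mouse was above every fed mouse. Exon peaks of 9130401M01Rik (log2 difference 1.24 ± 0.14), Parp16 (1.17 ± 0.23), Dnah8 (1.14 ± 0.16) and the last exon of Agap2 (0.98 ± 0.10) also rose (limma, SE given).

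Among the largest falls, in exon 32 of 89 of Lrp1, the endocytic receptor for chylomicron remnants, a peak at chr10:127572366-127572566 had 33.7, 63.8 and 46.6 normalized reads in fasted mice, against 161, 215 and 181 in fed mice (log2 difference −1.99 ± 0.21 (SE), limma adjusted p = 0.000281). A peak in exon 34 of 89 had 75.3, 82.7 and 62.3 in fasted mice, against 228, 299 and 218 in fed mice (log2 difference −1.77 ± 0.14 (SE), limma adjusted p = 0.000122). Peaks in exons 24 and 23 of the same gene were not called, with log2 differences of 0.08 and −0.15, the first of which was −0.04 under the scaling to gene starts. Its falls were at 2 of its 4 peaks, with fasted mice well below fed mice at both.

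In Rapgef3, which codes for the cAMP-activated exchange factor EPAC1, the last-exon peak had 38.2, 55.9 and 24.7 normalized reads in fasted mice, against 143, 139 and 136 in fed mice (log2 difference −1.87 ± 0.25 (SE), limma adjusted p = 0.000691). In Mapkap1, the SIN1 subunit of mTORC2, the exon 5 peak had 47.9, 60.8 and 56.7 normalized reads in fasted mice, against 143, 170.5 and 170.4 in fed mice (log2 difference −1.59 ± 0.14 (SE), limma adjusted p = 0.000166). The last-exon peak of Wdr45b, an autophagy protein of the WIPI family, had 93.7, 86.6 and 74.7 normalized reads in fasted mice, against 227, 324 and 238 in fed mice (log2 difference −1.61 ± 0.14 (SE), limma adjusted p = 0.000152). At these 3 genes the highest fasted mouse was below the lowest fed mouse, as the choice of these peaks required. Further exon peaks that fell were those of Cenpm (−1.87 ± 0.26), Trim12a (−1.67 ± 0.25), Htra1, a secreted serine protease (−1.66 ± 0.22), Ell3 (−1.66 ± 0.17) and Car2, carbonic anhydrase 2 (−1.50 ± 0.33), each a limma log2 difference with its SE. Car2 went both ways, since its 5' UTR peak was called higher (log2 difference 0.42 ± 0.12 (SE), limma adjusted p = 0.0208), though not under the scaling to gene starts (adjusted p = 0.077) or without 4 of the 6 mice (up to 0.0656).

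**Figure D2:**
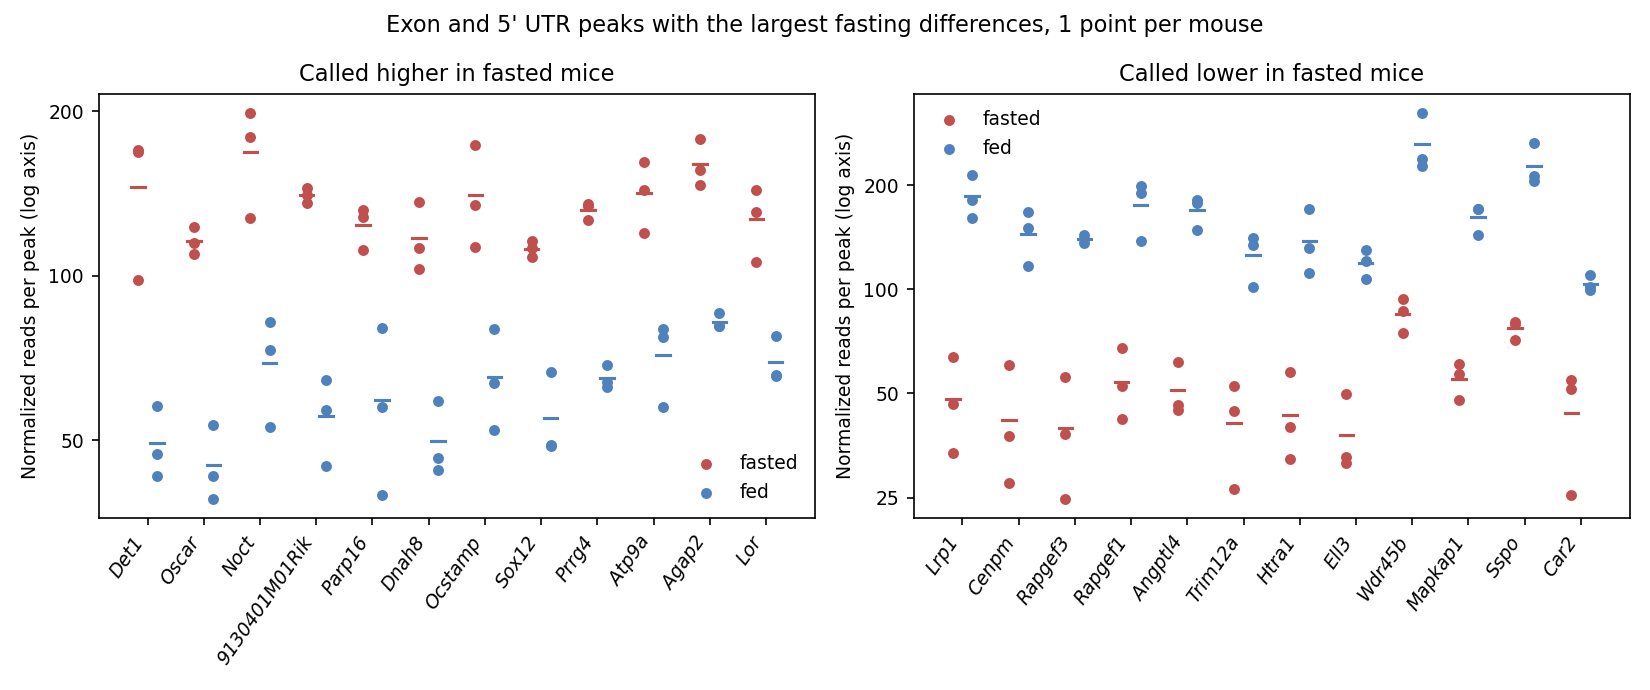
Normalized reads per peak on a log axis, 1 point per mouse and a bar at the mean of 3, for the 12 exon and 5' UTR peaks with the largest rise (left) and fall (right), fasted left of fed at each gene. Fasted and fed mice do not overlap at any of them, which the choice of these peaks required, and at Det1 the fasted mice sit between 98.3 and 170.1.

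The gene groups that follow are small. Their counts stand beside 16.5% of all peaks called higher and 18.1% called lower, or 7.74% and 24.5% scaled to gene starts. Where fasted and fed mice are said not to overlap, the same held at 51.5% of all peaks. Lipid synthesis genes held 5 members, of which 4 fell and 1 rose, with a median log2 difference of −0.89. Srebf1, which codes for the lipogenic factor SREBP1, had 49.8, 68.8 and 33.7 normalized reads in fasted mice, against 155, 125 and 108 in fed mice in a peak of exon 8 of 19 at chr11:60204109-60204309 (log2 difference −1.38 ± 0.23 (SE), limma adjusted p = 0.00216). Scd1, the stearoyl-CoA desaturase, had 117, 108 and 89.2 normalized reads in fasted mice, against 262, 279 and 209 in fed mice in its 5' UTR peak (log2 difference −1.22 ± 0.13 (SE), limma adjusted p = 0.000278). Fasted mice were below fed mice without overlap at both. Acly, which makes cytosolic acetyl-CoA from citrate, had 33.3, 44.5 and 39.3 in fasted mice, against 73.6, 80.4 and 66.7 in fed mice in exon 8 of 29 (log2 difference −0.89 ± 0.17 (SE), limma adjusted p = 0.00345). Fasn, the fatty acid synthase, had 280.4, 296 and 262 in fasted mice, against 414, 439 and 372 in fed mice in its 5' UTR (log2 difference −0.53 ± 0.08 (SE), limma adjusted p = 0.00101). The lipid droplet gene Cidec rose in exon 5, with 349, 335 and 393 normalized reads in fasted mice, against 293, 281 and 299 in fed mice (log2 difference 0.30 ± 0.07 (SE), limma adjusted p = 0.0108). That call was lost when libraries were scaled to gene starts (adjusted p = 0.0939).

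Cholesterol genes held 7 members, of which 3 fell and 0 rose (median −0.26). In frozen liver alone 0 rose and 5 fell (median −0.29), while in fresh liver 1 rose and 1 fell (median −0.076). With the scaling to gene starts 5 were lower, and with quantile normalization 1 was higher and 5 lower. Idi1, the isopentenyl diphosphate isomerase, had 307, 322 and 305 normalized reads in fasted mice, against 403, 409.9 and 384 in fed mice in exon 1 (log2 difference −0.37 ± 0.06 (SE), limma adjusted p = 0.0014). At Idi1 each fasted mouse was below each fed mouse. Its log2 difference was −0.67 in frozen liver and −0.07 in fresh liver, where it was not called (limma adjusted p = 0.445). Dhcr7, the last enzyme of the pathway, was called lower (log2 difference −0.26 ± 0.07 (SE), limma adjusted p = 0.0249). It was not called without fasted mouse B (adjusted p = 0.0573), fed mouse A (0.0942) or fed mouse B (0.0932).

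Of 3 gluconeogenesis members, the exon 19 peak of Pcx, the pyruvate carboxylase, fell, with 21.7, 27.0 and 24.1 normalized reads in fasted mice, against 63.4, 71.2 and 75.8 in fed mice (log2 difference −1.50 ± 0.18 (SE), limma adjusted p = 0.000422). The groups were far apart, with the highest fasted value below the lowest fed one. A peak of Slc37a4, the glucose-6-phosphate transporter, was called higher (log2 difference 0.49 ± 0.16 (SE), limma adjusted p = 0.0385). The call ended under the scaling to gene starts (adjusted p = 0.113), without fed mouse B (0.127) and without 3 others. Fatty acid oxidation genes held 9 members, with 1 higher and 1 lower. The fall was at Angptl4, whose promoter went the other way. The rise was at Acot3, an acyl-CoA thioesterase (log2 difference 0.35 ± 0.12 (SE), limma adjusted p = 0.0457), and was not called without fed mouse A (adjusted p = 0.143) or 4 of the 5 other mice. The 5' UTR peak of Ppara, the fasting-activated receptor, had 131 ± 5.73 normalized reads in fasted mice and 122 ± 23.6 in fed mice (SD, n = 3 each) (log2 difference 0.11 ± 0.13 (SE), limma adjusted p = 0.526). Glycolysis genes held 9 members, 3 of them lower and 0 higher, or 2 and 2 with quantile normalization. Pdk2, a pyruvate dehydrogenase kinase, had 133, 165 and 146 in fasted mice, against 217, 232 and 184 in fed mice (log2 difference −0.50 ± 0.11 (SE), limma adjusted p = 0.00721). The glucose transporter Slc2a2 (log2 difference −0.79 ± 0.25 (SE), limma adjusted p = 0.0364) and the phosphatase Pdp2 (log2 difference −0.90 ± 0.30 (SE), limma adjusted p = 0.0435) were also called lower. Slc2a2 was not called without fed mouse A (adjusted p = 0.123), B (0.0846) or C (0.0753), or fasted mouse A (0.0669). Pdp2 was not called without fed mouse A (adjusted p = 0.114), B (0.104) or C (0.11), or fasted mouse A (0.11) or C (0.0723). With quantile normalization Pdp2 was not called either (adjusted p = 0.0613). Of 23 fasting genes chosen by name, among them Pck1, G6pc, Pdk4, Cpt1a and Fgf21, 15 had no member.

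Among liver transcription factor genes 6 of 16 members rose and 3 fell, and with the scaling to gene starts 5 rose and 6 fell. Cebpb, a C/EBP factor of the fasting response, rose in its exon 1 peak at chr2:167689016-167689216, with 221, 244 and 259 normalized reads in fasted mice, against 149, 119 and 136 in fed mice (log2 difference 0.82 ± 0.10 (SE), limma adjusted p = 0.000586). The overlapping 5' UTR peak rose too (log2 difference 0.54 ± 0.07 (SE), limma adjusted p = 0.000677). Pparg rose in exon 6, with 177, 159.8 and 164 normalized reads in fasted mice, against 109.8, 98.5 and 132 in fed mice (log2 difference 0.56 ± 0.11 (SE), limma adjusted p = 0.00515). The pioneer factor Foxa1 rose in its 5' UTR, with 157, 165 and 171 in fasted mice, against 119, 113 and 137 in fed mice (log2 difference 0.42 ± 0.09 (SE), limma adjusted p = 0.00841). All fasted mice were above all fed mice at the peaks whose values are given here. Another peak of Foxa1 went the other way, with a log2 difference of −0.34. It gained a lower call under the scaling to gene starts (limma adjusted p = 0.0244) and over 12 libraries without a block (0.0257). Nrip1, the corepressor RIP140, rose in its last exon (log2 difference 0.75 ± 0.14 (SE), limma adjusted p = 0.00355). Zbtb20, a repressor that silences alpha-fetoprotein in adult liver, fell in exon 8, with 24.0, 39.0 and 14.6 normalized reads in fasted mice, against 94.3, 87.2 and 80.2 in fed mice (log2 difference −1.87 ± 0.30 (SE), limma adjusted p = 0.00169).

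Clock genes held 9 members, with 3 higher and 4 lower. The 3 that rose were the 5' UTR peaks of Noct. Neighbours among them overlap and share reads, so they are 1 locus and not separate rises. The peak nearest the start had 288, 232 and 238 in fasted mice, against 168, 129 and 122 in fed mice (log2 difference 0.84 ± 0.13 (SE), limma adjusted p = 0.00149). The farthest had 125, 149 and 124 in fasted mice, against 101, 99.2 and 107 in fed mice (log2 difference 0.37 ± 0.10 (SE), limma adjusted p = 0.0226). Its call ended under the scaling to gene starts (adjusted p = 0.0992) and without fed mouse A (0.0632), fed mouse B (0.0740) or fasted mouse B (0.0780). Bhlhe40, a clock repressor, fell in its last exon, with 57.8, 73.6 and 50.0 normalized reads in fasted mice, against 131, 107 and 121 in fed mice (log2 difference −1.03 ± 0.16 (SE), limma adjusted p = 0.00126). Csnk1e, the kinase that marks PER proteins, fell in exon 6 (log2 difference −1.02 ± 0.20 (SE), limma adjusted p = 0.00449). The PAR bZIP factor Dbp fell in exon 2 (log2 difference −0.47 ± 0.09 (SE), limma adjusted p = 0.00318) and the clock repressor Per2 in exon 8 (log2 difference −0.25 ± 0.07 (SE), limma adjusted p = 0.0195). The Per2 call was lost without fasted mouse A (adjusted p = 0.056), fed mouse A (0.066) or fed mouse B (0.0775).

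Insulin pathway genes held 12 members, 1 higher and 2 lower. The exon 3 peak of Insr, the insulin receptor, had 72.1, 69.1 and 66.1 normalized reads in fasted mice, against 138, 149 and 145 in fed mice (log2 difference −1.03 ± 0.10 (SE), limma adjusted p = 0.000207), with tight and separate groups. Its 5' UTR peak had 103, 94.5 and 98.6 in fasted mice, against 102, 85.1 and 92.9 in fed mice and was not called (log2 difference 0.08 ± 0.11 (SE), limma adjusted p = 0.615), with a log2 difference of −0.048 under the scaling to gene starts. The other calls were Irs1, a docking protein of the receptor (log2 difference 0.32 ± 0.10 (SE), limma adjusted p = 0.0371), and Grb10, an adaptor that restrains the receptor (log2 difference −0.34 ± 0.12 (SE), limma adjusted p = 0.0467). Both were lost when any 1 of the 6 mice was left out, with adjusted p = 0.0982 for Irs1 and 0.117 for Grb10 without fed mouse A. Grb10 was also not called with the mouse as replicate block (adjusted p = 0.174). Growth hormone and STAT5 genes held 8 members, 4 lower and 0 higher. The 5' UTR peak of Bcl6, a repressor of STAT5 targets, had 34.0, 39.6 and 30.3 normalized reads in fasted mice, against 75.2, 81.1 and 65.4 in fed mice (log2 difference −1.08 ± 0.17 (SE), limma adjusted p = 0.00147). A peak in exon 5 of Bcl6 was called lower (log2 difference −0.17 ± 0.06 (SE), limma adjusted p = 0.0406), and was not called when any 1 of the 6 mice was left out (adjusted p up to 0.122). Prlr, the prolactin receptor (log2 difference −0.55 ± 0.17 (SE), limma adjusted p = 0.0311), and the liver factor Onecut1 (log2 difference −1.30 ± 0.42 (SE), limma adjusted p = 0.0382) were called lower. The Prlr call was lost without fed mouse A (adjusted p = 0.0533), B (0.121) or C (0.0617), or fasted mouse B (0.0552) or C (0.0625). The Onecut1 call was lost without fed mouse A (adjusted p = 0.0795), B (0.0907) or C (0.125). A peak of Bcl6 nearer the start spread widely among fed mice and was not called, with 112, 106 and 117 in fasted mice, against 104, 58.1 and 163 in fed mice (limma adjusted p = 0.69).

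Genes of cAMP signalling and early response held 11 members, 2 higher and 4 lower. The exon peak of Jun, the AP-1 subunit, 1462 bp past the start, had 73.8, 104 and 86.9 normalized reads in fasted mice, against 178, 189 and 183 in fed mice (log2 difference −1.07 ± 0.12 (SE), limma adjusted p = 0.000367). All fasted mice lay below all fed mice. Pde4b, a cAMP phosphodiesterase, was called lower in its 5' UTR (log2 difference −0.74 ± 0.21 (SE), limma adjusted p = 0.022), except without fed mouse B (adjusted p = 0.0823). Klf15, a fasting-linked Krüppel factor, fell in exon 2 (log2 difference −0.25 ± 0.06 (SE), limma adjusted p = 0.0109). Btg1, an antiproliferative gene, was called lower in exon 2 (log2 difference −0.63 ± 0.18 (SE), limma adjusted p = 0.0225), but not without fed mouse A (adjusted p = 0.0527) or fed mouse B (0.0966). The 2 higher calls were at the transcription factor genes Myc (log2 difference 0.47 ± 0.16 (SE), limma adjusted p = 0.0453) and Jund (log2 difference 0.20 ± 0.05 (SE), limma adjusted p = 0.0188). Both ended under the scaling to gene starts (adjusted p = 0.128 and 0.392), and without fed mouse A (0.132 and 0.0548) or fasted mouse A (0.097 and 0.0783). The Myc call also ended without fasted mouse C (adjusted p = 0.0989) or fed mouse B (0.0573), and that of Jund without fed mouse C (0.0616). Of 7 glucocorticoid receptor target members 1 rose and 2 fell, the falls being the Bcl6 peaks. The rise was at Sult1e1, the estrogen sulfotransferase, with 109, 98.8 and 112 in fasted mice, against 71.9, 54.7 and 45.7 in fed mice (log2 difference 0.86 ± 0.16 (SE), limma adjusted p = 0.00366).

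Amino acid breakdown genes held 20 members, 2 higher and 5 lower, or 1 and 7 scaled to gene starts. Gls2, the liver glutaminase, fell in exon 3, with 112, 102 and 133 normalized reads in fasted mice, against 214, 219.8 and 176 in fed mice (log2 difference −0.81 ± 0.12 (SE), limma adjusted p = 0.00126). It was also called lower in exon 11 (log2 difference −0.50 ± 0.14 (SE), limma adjusted p = 0.0216), though not without 4 of the 6 mice (adjusted p up to 0.0865). Hal, the histidine ammonia-lyase, fell in its 5' UTR, with 186, 199 and 225 normalized reads in fasted mice, against 318, 332 and 266 in fed mice (log2 difference −0.58 ± 0.10 (SE), limma adjusted p = 0.00216). Hgd, of tyrosine breakdown, fell in exon 13 (log2 difference −1.11 ± 0.24 (SE), limma adjusted p = 0.00715). Gldc, of the glycine cleavage system, rose in exon 4, with 234, 235 and 209.7 normalized reads in fasted mice, against 156, 164 and 124 in fed mice (log2 difference 0.62 ± 0.11 (SE), limma adjusted p = 0.00248). Fasted mice were below fed mice without overlap at Gls2 exon 3 and at Hal, and above them at Gldc exon 4.

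Plasma protein and apolipoprotein genes held 19 members, 3 higher and 4 lower, which is near the share of all peaks in each direction. Apoa4, an apolipoprotein that the fasted liver makes, had 98.8, 85.5 and 71.1 normalized reads in fasted mice, against 21.1, 19.5 and 18.3 in fed mice in a 5' UTR peak at chr9:46240975-46241175 (log2 difference 2.07 ± 0.19 (SE), limma adjusted p = 0.000169). The overlapping peak at chr9:46240880-46241080 had 113, 96.3 and 73.4 in fasted mice, against 30.0, 27.9 and 25.2 in fed mice (log2 difference 1.71 ± 0.19 (SE), limma adjusted p = 0.000318). Every fasted mouse was far above every fed mouse at both, which share reads. Apoc2, the cofactor of lipoprotein lipase, rose in its 5' UTR (log2 difference 0.51 ± 0.08 (SE), limma adjusted p = 0.00154). The pair of overlapping exon 2 peaks of Cpn2, a carboxypeptidase N subunit, fell (log2 differences −1.18 and −0.99). The other peak of Cpn2 was not called (log2 difference 0.35). Acute phase and coagulation genes held 13 members, 1 higher and 3 lower, or 1 and 6 scaled to gene starts and 2 and 4 with quantile normalization. Haptoglobin, Hp, rose in its 5' UTR, with 166, 186 and 163 normalized reads in fasted mice, against 108, 78.1 and 84.2 in fed mice (log2 difference 0.93 ± 0.12 (SE), limma adjusted p = 0.000675). Orm1, an acute phase glycoprotein, fell in exon 3 (log2 difference −1.31 ± 0.26 (SE), limma adjusted p = 0.00443). Masp1, a protease of the lectin pathway, fell in its 5' UTR (log2 difference −0.52 ± 0.10 (SE), limma adjusted p = 0.00377).

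Bile acid genes had 1 of 9 members higher, the 5' UTR peak of the phospholipid exporter Abcb4 (log2 difference 0.49 ± 0.12 (SE), limma adjusted p = 0.0107), not called without fed mouse B (adjusted p = 0.0526). Xenobiotic genes had 1 of 7 higher, exon 1 of Ahr, the dioxin receptor (log2 difference 0.51 ± 0.14 (SE), limma adjusted p = 0.0194), not called without fed mouse A (adjusted p = 0.0689) or under the scaling to gene starts (0.0593). Autophagy genes had 1 of 4 lower, at Wipi1 (log2 difference −0.39 ± 0.11 (SE), limma adjusted p = 0.0211), not called without fed mouse A (adjusted p = 0.0802). Of 6 heat shock members 0 were called in either direction. The members with the highest mean level, in Abhd14a, Pnrc1, Adprh, Pcmtd1 and F10, were not called, with log2 differences between −0.16 and 0.11. The F10 peak was called lower scaled to gene starts (adjusted p = 0.0157), with quantile normalization (0.0071), with the mouse as replicate block (0.0359) and in 3 other alternatives.

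Deep exons were also set beside the promoter peak of their own gene. Of 549 exon peaks beyond 1 kb whose gene had an annotated promoter peak, in 485 genes, the median log2 difference was −0.16 for the exon peaks and 0.10 for the promoter peaks. Of these exon peaks 185 fell and 52 rose. Of the 312 pairs whose exon peak was not called, the promoter peak rose in 46 and fell in 10. In 29 pairs the exon peak fell while the promoter peak rose, and in 1 the reverse held. Both rose in 12 pairs and both fell in 12. Scaled to gene starts, these counts were 15, 1, 3 and 30, and the promoter median turned to −0.021. With quantile normalization they were 26, 5, 22 and 18. The test of each peak was its own limma call, and the difference between a pair was not tested. Whether opposite pairs were more frequent than the separate shares of exon and promoter calls would give was not tested either.

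Angptl4, a lipoprotein lipase inhibitor and a classic PPARα target, also had exon and promoter peaks called in opposite directions, here within 1 kb of its start. Its exon 1 peak at chr17:33781173-33781373 had 46.4, 61.8 and 44.8 normalized reads in fasted mice, against 148, 178 and 181 in fed mice (log2 difference −1.73 ± 0.14 (SE), limma adjusted p = 0.00014). The promoter peak at chr17:33781495-33781695 had 248 ± 7.95 normalized reads in fasted mice and 91.4 ± 39.4 in fed mice (SD, n = 3 each) (log2 difference 1.51 ± 0.26 (SE), limma adjusted p = 0.00224). The peaks lie side by side, and fasted mice were below fed mice in one and above them in the other.

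Jun had 408 ± 13.8 normalized reads in fasted mice and 354 ± 8.12 in fed mice (SD, n = 3 each) at its promoter (log2 difference 0.21 ± 0.06 (SE), limma adjusted p = 0.0164), while its exon peak fell as given above. Lipc, the hepatic lipase, had 44.8, 44.7 and 19.6 normalized reads in fasted mice, against 96.2, 129 and 74.9 in fed mice in exon 6 (log2 difference −1.49 ± 0.31 (SE), limma adjusted p = 0.00609). Its promoter peak had 156 ± 9.55 normalized reads in fasted mice and 117 ± 2.57 in fed mice (SD, n = 3 each) (log2 difference 0.43 ± 0.08 (SE), limma adjusted p = 0.00442). Csrnp1, a nuclear protein induced by growth signals, had 87.4, 106 and 51.6 normalized reads in fasted mice, against 242, 208 and 219 in fed mice in its last exon (log2 difference −1.50 ± 0.21 (SE), limma adjusted p = 0.000959). Its promoter peak had 327 ± 21.4 normalized reads in fasted mice and 288 ± 4.04 in fed mice (SD, n = 3 each) (log2 difference 0.20 ± 0.06 (SE), limma adjusted p = 0.0337). Under the scaling to gene starts the promoters of Jun and Csrnp1 were not called (adjusted p = 0.314 and 0.409), while those of Angptl4 and Lipc were (0.00288 and 0.0208). In each of these 3 genes, Jun, Lipc and Csrnp1, the exon peak was lower in every fasted mouse than in every fed mouse. The Insr promoter was not called (log2 difference 0.12 ± 0.07 (SE), limma adjusted p = 0.194), and the Srebf1 promoter fell with its exon (log2 difference −0.35 ± 0.08 (SE), limma adjusted p = 0.00746). Papss2, which makes the sulfate donor PAPS, went the other way, with 156, 157 and 167 in fasted mice, against 119.7, 123 and 132 in fed mice in exon 11 (log2 difference 0.32 ± 0.08 (SE), limma adjusted p = 0.0154). Its promoter had 76.7 ± 6.11 normalized reads in fasted mice and 135 ± 11.4 in fed mice (SD, n = 3 each) (log2 difference −0.81 ± 0.11 (SE), limma adjusted p = 0.000835). The exon call of Papss2 was lost under the scaling to gene starts (adjusted p = 0.0918) and without fed mouse A (0.0556).

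**Figure D3:**
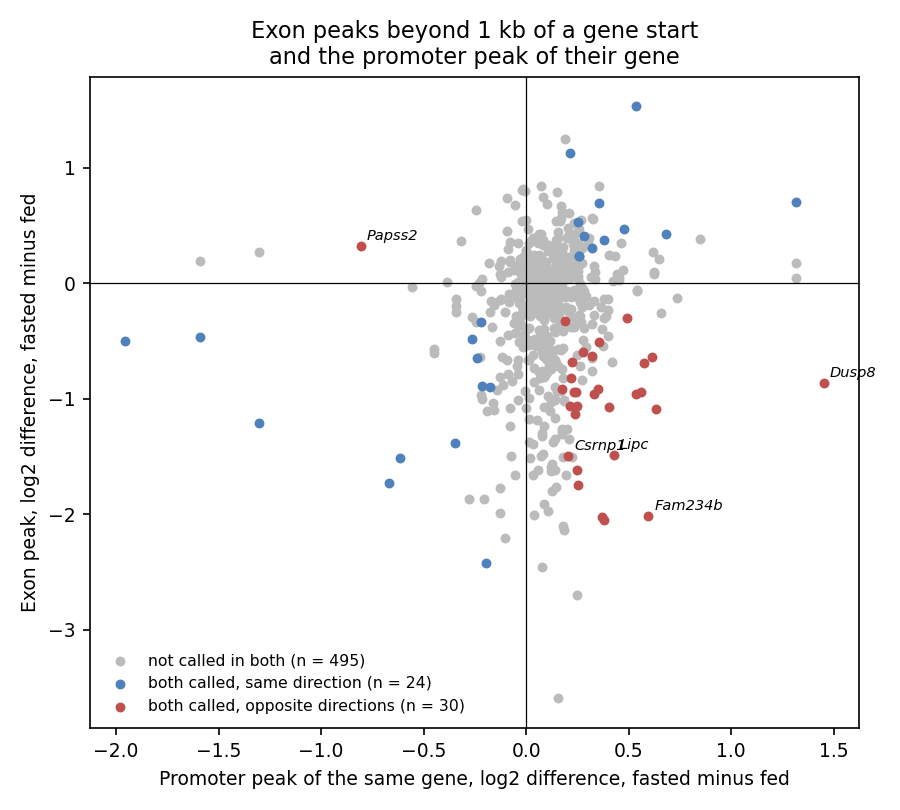
Log2 difference, fasted minus fed, of 549 exon peaks beyond 1 kb of a gene start (vertical axis) against that of the promoter peak of the same gene (horizontal axis), colored by whether limma called both. The lower right holds 29 pairs with a fall in the exon and a rise at the promoter, among them Lipc and Csrnp1, and the upper left holds 1, Papss2. Scaled to gene starts, the pairs numbered 15 and 1, and with quantile normalization 26 and 5. Of the 549 exon peaks 185 fell and 52 rose, whatever their promoter did.

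Of 43 genes with 3 or more members, 14 had no member called, 10 had some but not all higher and none lower, 12 some but not all lower and none higher, and 2 had calls in both directions. The genes with all of 3 members called higher were Agap2, Lor and Noct, the last with overlapping peaks. Those with all of 3 lower were Sspo and Mief2. These and Dock6 were chosen after their values were seen. Sspo, which codes for SCO-spondin, had 71.1, 79.6 and 80.6 normalized reads in fasted mice, against 206, 213 and 265 in fed mice in exon 10 of 103 (log2 difference −1.53 ± 0.11 (SE), limma adjusted p = 7.87e-05). Its peaks in exons 12 and 90 had log2 differences of −0.79 and −1.29. Lor, the epidermal protein loricrin, rose in 3 peaks of exon 2 with log2 differences of 0.97, 0.46 and 1.75. Agap2, a GTPase-activating protein, rose in exons 1, 2 and 18 by 0.51, 0.34 and 0.98, with exon 2 lost under the scaling to gene starts (adjusted p = 0.132) and without any 1 mouse other than fasted mouse B. For Mief2 the calls of both exon 4 peaks were lost without fed mouse C (adjusted p = 0.0556 and 0.0607) and 1 other mouse each.

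Dock6, an exchange factor for small GTPases, held 5 members, and the nearest gene start of all 5 was that of Angptl8, an insulin-induced regulator of lipoprotein lipase. The exon 19 peak at chr9:21831782-21831982 had 103, 135 and 90.0 normalized reads in fasted mice, against 252, 286 and 232 in fed mice (log2 difference −1.28 ± 0.14 (SE), limma adjusted p = 0.000307). The exon 11 peak had 24.7, 33.3 and 29.1 in fasted mice, against 59.2, 75.3 and 72.2 in fed mice (log2 difference −1.26 ± 0.19 (SE), limma adjusted p = 0.00115), and the exon 15 peak fell as well (log2 difference −0.75 ± 0.16 (SE), limma adjusted p = 0.00599). Fasted mice were below fed mice at these 3 peaks. The peak in exon 21, between them and exon 22, had 289.7, 270.3 and 263 in fasted mice, against 264, 242 and 273 in fed mice and was not called (limma adjusted p = 0.432), with a log2 difference of 0.07 that became −0.05 under the scaling to gene starts. Exon 22 had −0.35 (limma adjusted p = 0.113), called under that scaling (adjusted p = 0.0403).

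Within each preparation the fasting calls were similar in number. In frozen liver 222 members rose and 286 fell, beside 12.8% and 15% of all peaks. In fresh liver 253 rose and 289 fell, beside 11.4% and 16.1%. In both preparations 123 members were called higher and 223 lower, and 0 were called in opposite directions. All mice gave 508 calls in frozen and 542 in fresh liver, where 27.8% and 27.6% of all peaks were called. Without fed mouse B the frozen calls numbered 301, and without fasted mouse A the fresh calls numbered 361. The authors' deposited table gave an adjusted p-value under 0.05 to 535 members in frozen liver, 239 higher and 296 lower, and limma called 483 of these in the same direction. In fresh liver the authors' deposited table called 443, with 189 higher and 254 lower, and limma called 442 of them in the same direction.

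Freezing was fitted over single libraries, 6 against 6, and not over averages per mouse as fasting was. Over the 12 libraries, 496 members were higher in frozen than in fresh liver and 645 lower, beside 28.7% and 32.8% of all peaks and 61.5% in either direction (limma, adjusted p under 0.05, feeding state as a covariate). Exon peaks had 257 higher and 428 lower calls, with a median log2 difference of −0.10. That median was 0.000134 without the lowest 25% of peaks and −0.023 with quantile normalization, where the calls were 288 and 336. The 5' UTR peaks had 239 and 217, with a median of 0.019 that was −0.052 when libraries were scaled to gene starts. That scaling shifted the median of all peaks by −0.072. Depth moved with preparation, at 88.4 ± 31.0 estimated reads in the median member of frozen and 130.3 ± 46.1 of fresh libraries (SD, n = 6 each), and its part in these calls was not tested.

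The largest rise with freezing among named peaks was in exon 8 of Cyp4f39, a fatty acid hydroxylase, at chr17:32483264-32483464, with 323, 381 and 429 normalized reads (lowest, median, highest) in 6 frozen libraries, against 84.1, 104 and 121 in 6 fresh libraries (log2 difference 1.86 ± 0.07 (SE), limma adjusted p = 2.28e-11). Several 5' UTR peaks of regulators rose as well. Atf4, the factor of the integrated stress response, had 123, 136 and 168 normalized reads (lowest, median, highest) in 6 frozen libraries, against 27.9, 50.6 and 59.9 in 6 fresh libraries (log2 difference 1.54 ± 0.13 (SE), limma adjusted p = 4.4e-08). The stress factor Atf3 had 164, 210.1 and 239.7 normalized reads (lowest, median, highest) in 6 frozen libraries, against 62.4, 83.8 and 86.9 in 6 fresh libraries (log2 difference 1.39 ± 0.09 (SE), limma adjusted p = 2.59e-09). Nr1d1, the clock repressor REV-ERBα, had 205, 219 and 232 normalized reads (lowest, median, highest) in 6 frozen libraries, against 72.3, 82.1 and 98.6 in 6 fresh libraries (log2 difference 1.38 ± 0.07 (SE), limma adjusted p = 3.62e-10). The ranges of frozen and fresh libraries did not overlap at these 4 genes, as the choice of named peaks required. For fasting, limma called neither Atf4 (adjusted p = 0.125), Atf3 (0.0857) nor Nr1d1 (0.102), although Atf4 was called higher with quantile normalization (adjusted p = 0.0454).

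Among the falls with freezing, the 5' UTR peak of Frk, a Src-family kinase, had 33.4, 54.1 and 64.5 normalized reads (lowest, median, highest) in 6 frozen libraries, against 107, 134 and 146 in 6 fresh libraries (log2 difference −1.39 ± 0.16 (SE), limma adjusted p = 1.44e-06). The 5' UTR peak of Slc37a2, a sugar phosphate exchanger, had 113, 121 and 129.9 normalized reads (lowest, median, highest) in 6 frozen libraries, against 234, 253 and 304 in 6 fresh libraries (log2 difference −1.08 ± 0.07 (SE), limma adjusted p = 1.95e-09). Every frozen library was below every fresh library at both. Peaks of Ltn1, a ubiquitin ligase of stalled ribosomes (−1.23), Togaram1, a ciliary protein (−1.21), and Slc5a3, the myo-inositol transporter (−1.19), also fell (limma log2 differences).

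**Figure D4:**
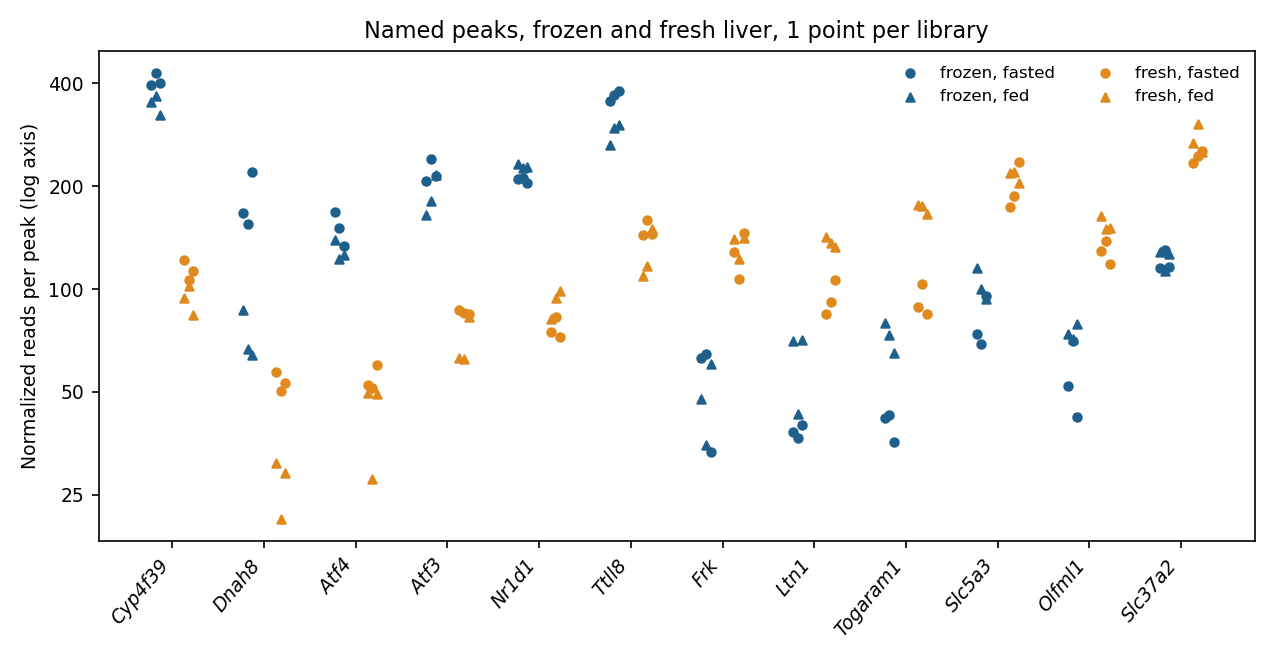
Normalized reads per peak on a log axis, 1 point per library, for the 6 exon and 5' UTR peaks with the largest rise and the 6 with the largest fall in frozen against fresh liver, frozen left of fresh, circles for fasted and triangles for fed mice. At Cyp4f39 the 6 frozen libraries sit between 323 and 429 and the 6 fresh ones between 84.1 and 121.

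Near gene starts, the sequence window could be read for 666 of 875 members within 500 bp of a start, in 636 genes. The window spans 250 bases before to 50 after the start, and 129 of the peaks overlap it, since the median peak centre lay 245 bp past the start. TGACG, counted on both strands, was in 29.1% of the 666 windows, beside 20.8% of all 32851 RefSeq windows of the same length. By freezing, it was in 38.0% of the windows of 208 members that rose, 23.6% of 174 that fell and 26.1% of 284 not called. By fasting, it was in 57 of 171 that rose, 4 of 40 that fell and 133 of 455 not called. CCAAT, also on both strands, was in 34.5% of member windows and 37.4% of all windows, and CACGTG, an E box, in 9.16% and 7.15%. These counts describe letters in the window, and no test was made of them.

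The fasting difference itself was compared between preparations. Without a term for the mouse, limma called 0 members (lowest adjusted p = 0.244) and 0 of all peaks, of which 2702 had an unadjusted p under 0.05 (5.14%). With the mouse as replicate block, which uses the pairing of the frozen and fresh library, limma called 395 peaks (0.752%) and 14 members, 3 higher and 11 lower, beside 0.356% and 0.396% of all peaks. The pairing comes from the data, since same-letter columns deviated together, and not from a label. At the exon 1 peak of Idi1 the libraries had 255, 284 and 251 normalized reads in frozen fasted libraries, against 419, 443 and 399.5 in frozen fed libraries. Fresh libraries had 359.6, 361 and 358 when fasted, against 386, 377 and 368 when fed (log2 difference of differences −0.60 ± 0.09 (SE), limma adjusted p = 0.000745). In frozen liver its fasting difference was −0.67 ± 0.08 (SE, limma adjusted p = 0.000253), and in fresh liver −0.07 ± 0.06 (SE, limma adjusted p = 0.445). The direction is the frozen fasting difference minus the fresh one.

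Scd1 had 113, 107 and 77.9 normalized reads in frozen fasted libraries, against 326, 341 and 236 in frozen fed libraries. Fresh libraries had 121, 109.6 and 101 when fasted, against 197, 218 and 181 when fed (log2 difference of differences −0.75 ± 0.14 (SE), limma adjusted p = 0.00548). It fell with fasting in both preparations, with a log2 difference of −1.59 ± 0.17 (SE, limma adjusted p = 0.000104) in frozen and −0.84 ± 0.10 (SE, limma adjusted p = 0.000277) in fresh liver. Gna14, a G protein alpha subunit, had 99.2, 107 and 82.3 normalized reads in frozen fasted libraries, against 181, 172 and 204 in frozen fed libraries. Fresh libraries had 94.3, 103 and 112 when fasted, against 114, 114 and 111 when fed (log2 difference of differences −0.81 ± 0.16 (SE), limma adjusted p = 0.0107). Others of the 14 were Nsd3, Slc22a15, Azin2, 9130401M01Rik, Grb10, Fbrsl1, Nkx2-6, Rapgef1, Clasp1 and Slc2a10.

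**Figure D5:**
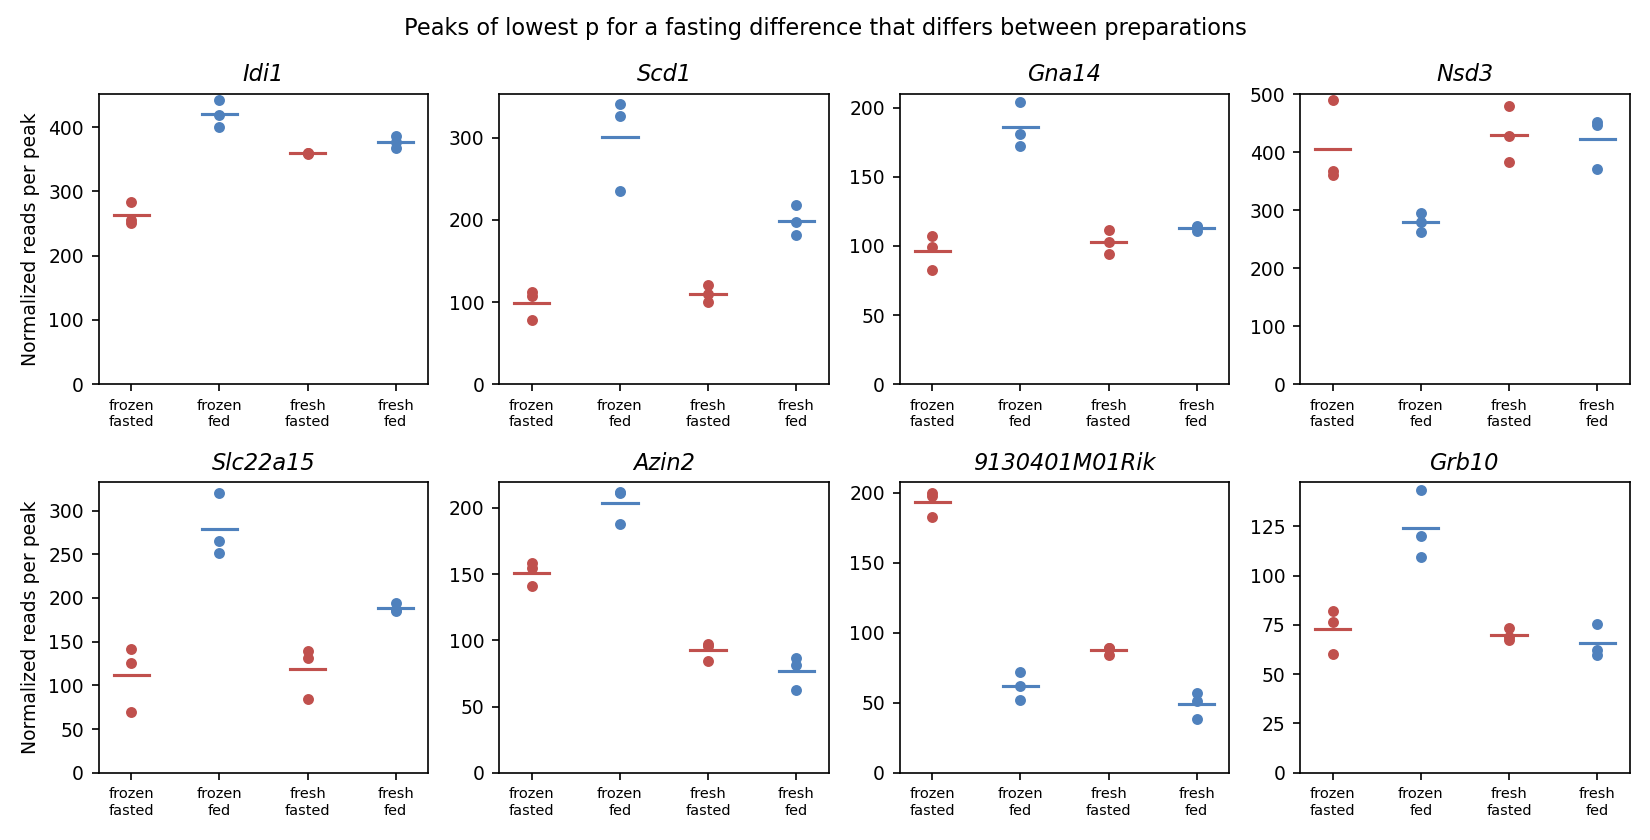
Normalized reads per peak, 1 point per library and a bar at the mean of 3, for the 8 members of lowest p with the replicate block, as frozen fasted, frozen fed, fresh fasted and fresh fed from left to right. At Idi1 frozen fasted libraries sit between 251 and 284 and frozen fed between 399.5 and 443, while fresh fasted and fresh fed libraries sit between 358 and 386.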

How the data were processed

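The deposited table lists merged peaks of 200 bp and, per the file headers, each one's annotation, nearest gene and a score that the authors gave it, which was not used. Signal per peak in 12 libraries is normalized by the authors in a way the sources used here do not state. The values of each column are whole multiples of 1 step (within 1e-06), as reads divided by 1 size factor per library would be; depths take that step as 1 read and are estimates. Tools in the submitters' processing notes, listed without roles, are HOMER, SAMtools, BWA 0.7.5a-r405 and DESeq2, on mm10; the sources used here give no transposase shift, duplicate handling or peak caller settings. Per the labels' protocols, about 25000 bead-bound nuclei were transposed for 30 min at 37 °C, and DNA was amplified in 12 PCR cycles. The log2 fold changes and adjusted p-values that the authors deposited are quoted as the authors' deposited table.

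Members are peaks annotated as exon or 5' UTR; all 1970 were tested with no filter, and 1400 lay above the lowest 25% of all peaks by mean value (73.7 normalized reads). Values were taken as log2(value + 1) and fitted over all 52530 peaks in R 4.3.3 with limma 3.58.1 (two-sided, prior with a trend, Benjamini-Hochberg, threshold 0.05). A fold on this scale understates changes of low peaks. For fasting, the frozen and fresh column of a letter were averaged, 3 against 3. Columns carry letters A to C that match no mouse number in the labels; same-letter columns deviated together (r of 0.329 to 0.640 for 6 pairs), so letters were taken as mice. Freezing and the interaction used 12 libraries.

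Alternatives were pseudocounts of 0.5 and 5, a filter, 2 scalings, a mouse block and leaving out each mouse. Members, gene lists and the naming rule were chosen with earlier results of these data known. The rule took the 12 higher and 12 lower fasting calls and the 6 and 6 freezing calls of largest log2 difference with a mean above the lowest 25% and no overlap between groups, 1 per gene, the 3 members of lowest p for the interaction, up to 3 genes per list, 23 fixed genes, and the 5 highest members. Peaks shown as further members of the same genes, or named for their promoter, were chosen after their values were seen. Of host transcripts, 1965 matched a gene symbol and 5 did not. Results for some named peaks are not reported here.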

Additional observations from a re-analysis of the deposited data

Results flagged for a closer look

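For 14 of 1970 members (0.711%), beside 0.752% of all peaks, the fasting difference differed between frozen and fresh liver when the mouse was a replicate block, and for 0 without it (limma, adjusted p under 0.05). Values are the frozen minus the fresh log2 difference of fasted against fed. In 11 the difference was more negative in frozen liver, among them Grb10 (−0.86), Gna14 (−0.81), Scd1 (−0.75), Slc2a10 (−0.73), Azin2 (−0.70), Slc22a15 (−0.67), Rapgef1 (−0.66), Idi1 (−0.60), Fbrsl1 (−0.47) and Nkx2-6 (−0.40). In 3 it was more positive, at 9130401M01Rik (0.79), Clasp1 (0.51) and Nsd3 (0.50). The peak of 9130401M01Rik, in the last exon, had 197, 199.6 and 182 normalized reads in frozen fasted libraries, against 61.9, 71.7 and 51.7 in frozen fed libraries. Fresh libraries had 84.1, 89.3 and 89.3 when fasted, against 51.5, 57.1 and 38.1 when fed (log2 difference of differences 0.79 ± 0.18 (SE), limma adjusted p = 0.0254). The exon peak of Rapgef1 had 39.1, 52.3 and 28.9 normalized reads in frozen fasted libraries, against 187, 196 and 127 in frozen fed libraries. Fresh libraries had 65.8, 83.1 and 55.4 when fasted, against 193, 202 and 149 when fed (log2 difference of differences −0.66 ± 0.17 (SE), limma adjusted p = 0.0481). At Grb10 the peak had 81.9, 76.7 and 60.1 normalized reads in frozen fasted libraries, against 109.6, 143 and 120.0 in frozen fed libraries. Fresh libraries had 67.2, 69.1 and 73.5 when fasted, against 75.4, 62.4 and 59.8 when fed (log2 difference of differences −0.86 ± 0.20 (SE), limma adjusted p = 0.0322). Frozen libraries were shallower than fresh ones, and the part of depth in these differences was not tested.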

How the results depend on the processing

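Without the lowest 25% of peaks, the fasting calls were 447 in all and 199 lower, against 691 and 332. In fresh liver they were then 332, with 167 higher and 165 lower, against 542, 253 and 289; 176 were lower in frozen liver, against 286, and 392 with freezing, against 645, the freezing median of exon peaks was 0.000134, and the 5' UTR share differed by 0.0759 percentage points, against 0.103. Fewer members are tested under that filter. Scaled to gene starts, higher fasting calls were 140, 110 in fresh and 101 in frozen liver; medians were −0.12 for exon and 0.046 for 5' UTR peaks for fasting and −0.18 and −0.052 for freezing. Quantile normalization gave 402 higher in fresh liver and a freezing median of −0.023 for exon peaks. The causes were not tested.

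Over 12 libraries without a block 559 members were higher with fasting; with the replicate block by correlation 786 were called, 415 higher and 371 lower. The replicate block gave 1292 freezing calls, against 1141, and 14 for the interaction, against 0, and ended 1 other call of a named peak, at Grb10 (adjusted p = 0.174).

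Leaving out 1 mouse gave 404 to 623 fasting calls (164 to 315 higher, 240 to 339 lower), 361 to 513 in fresh liver (125 to 226 and 217 to 297), 301 to 480 in frozen liver (106 to 206 and 195 to 289) and 1043 to 1137 with freezing (454 to 500 and 571 to 637). Medians were 0.136 to 0.199 for 5' UTR and −0.0110 to 0.00780 for exon peaks for fasting, and 0.0115 to 0.0276 and −0.114 to −0.0969 for freezing. Share differences were 0.0865 to 0.120 for 5' UTR and −0.132 to −0.0918 for exon peaks.

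Of single peaks and alternatives, 1650 kept their call, 41 gained one, 115 lost one and 12 changed sign, none of these 12 called under deposited scaling with all mice. Scaled to gene starts these were Ppara (−0.014), Abhd14a (−0.011), Pnrc1 (−0.014), Adprh (−0.054), Pcmtd1 (−0.043), Dock6 exon 21 (−0.052), Insr in its 5' UTR (−0.048) and Lrp1 exon 24 (−0.044). Others were Ppara (−0.022 without fed mouse B, range to 0.24), Lrp1 exon 24 (−0.054 without fed mouse A, range to 0.15), the uncalled Bcl6 peak (−0.226 without fed mouse B, range to 0.511) and Atf6 (0.054 with quantile normalization). In the shallowest library a median member held an estimated 45 reads, and counting error covers reads only, not PCR copies.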

Other observations

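The member with the largest rise of all was below the level required for naming, and was chosen after its values were seen. In exon 5 of Emilin2, an extracellular matrix gene whose peak lies nearest to the start of Lpin2, a phosphatidate phosphatase gene, the peak at chr17:71256378-71256578 had 84.0, 59.3 and 62.3 normalized reads in fasted mice, against 4.89, 2.66 and 5.15 in fed mice (log2 difference 3.95 ± 0.38 (SE), limma adjusted p = 0.000206). Every fasted mouse was far above every fed mouse, and the fed values rest on few reads.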
